A study of Rattus norvegicus with 5 samples.

Results

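The kinesin motor family was read across 5 arrays of BRL-3A, a rat liver cell line. A gene was a member if its accession on the array led to a rat symbol made of Kif or Kifc, a number and at most 1 further letter. This gave 36 probes for 28 genes, of 15167 named genes in all. Kinesins are ATP-driven motors that walk along or take apart microtubules. Some build and pull the mitotic spindle or part the daughter cells at its end, and their mRNAs are made mainly in dividing cells; others carry vesicles, organelles or cilium parts in cells that need not divide. By these known roles, 10 of the 28 genes were set down as mitotic, 12 as transport and 6 as other, the last holding ciliary and atypical kinesins. Kif2b, Kif4a and Kif14 of the mitotic list, and 5 of the transport list, had no named probe and were not analysed here.

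The study asked what the ubiquitin-like membrane protein Tmub1 does to transcription in liver cells. Each of its 5 groups held 1 array: BRL-3A cells with a Tmub1 knockdown lentivirus, with the negative control virus of the knockdown, with a Tmub1 overexpression lentivirus, with the negative control virus of the overexpression, and normal cells without virus. The transduced cells were harvested 48 h after transduction. The normal array came from a separate scan, so the scan and the absence of virus cannot be told apart. With 1 array per group no difference has a replicate check, and no p-value is given.

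A level below is the log2 processed signal of a gene's brightest probe minus the 75th percentile of its array. A gene counted as higher or lower when it differed at least 2.5-fold, the fold of the series' design text, and its brighter value was well above background. The median raw signal was 356.2 on the knockdown array, 159.7 in its negative control, 143.9 on the array labelled overexpression, 116.4 in that negative control and 329.4 in normal cells, and 67.0% to 86.6% of probes lay above background. Tmub1 had a level of -1.42 with knockdown, against 0.45 in its negative control, and of 0.44 on the array labelled overexpression, against 0.37 in its negative control. The knockdown label was borne out by its target, while no rise of Tmub1 was seen for the overexpression label (log2 difference 0.07), so that array is called the array labelled overexpression. Of 6 hepatocyte markers Hnf4a and Cyp2e1 were above background on all 5 arrays, Alb, Ttr and Apoa1 on 2 each and Tat on none, whereas all 6 fibroblast and stellate markers were above background everywhere. Of the other cell types, 2 of 4 leukocyte, 3 of 4 endothelial and 2 of 4 neuron markers were above background on all arrays. The log2 summed level was 1.96, 2.34, 1.59, 1.24 and -0.13 for the leukocyte markers in knockdown, its negative control, overexpression, its negative control and normal cells, and in that order 1.21, 0.46, 1.00, 2.03 and 1.83 for the endothelial and -0.72, 0.64, 0.35, 0.49 and 1.00 for the neuron markers. In the same order it was -1.66, -2.24, -2.52, -2.41 and -1.002 for the hepatocyte markers and 7.99, 8.57, 8.33, 9.02 and 8.39 for the fibroblast and stellate markers. Their part in the kinesin results was not tested.

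Of the 28 kinesins, 24 were above background on all 5 arrays, among them all 10 mitotic ones, with Kif23, Kif2c and Kif11. Kif5a and Kif5c, motors known mainly from neurons, were above background on none. The brightest probe of ciliary Kif27 was so in normal cells alone and its second probe on the knockdown array alone, and Kif7, which acts in Hedgehog signalling at the cilium, on every array but the knockdown negative control.

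Promoters of 23 of the 28 genes were found in the RefSeq table for rat (build GRCr8), each with 250 bases before and 50 after the annotated start. They are shown because mitotic genes in mammals share known promoter elements: the CHR, the CCAAT box and E2F sites. The CHR, an element of cell cycle genes, was searched as TTTGAA and as TTCGAA. The CCAAT box was searched by the letters of its name. E2F sites were searched as TTCCCGC and as TTGGCGC. Each search covered both strands. The windows below are those of the 3 mitotic kinesins with the largest difference after knockdown and of Kif5b, the transport kinesin with the largest one. Capitals mark the matches, which read as the reverse complement where the motif lies on the opposite strand, and no printed match overlaps another.
Kif23 (chr8:71320535-71320834, minus strand): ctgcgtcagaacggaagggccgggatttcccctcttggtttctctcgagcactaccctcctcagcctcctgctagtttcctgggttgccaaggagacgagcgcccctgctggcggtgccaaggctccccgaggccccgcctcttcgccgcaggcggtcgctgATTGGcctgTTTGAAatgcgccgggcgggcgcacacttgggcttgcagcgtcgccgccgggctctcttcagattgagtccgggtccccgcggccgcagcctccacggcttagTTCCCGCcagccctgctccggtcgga
Kifc1 (chr20:5000679-5000978, plus strand): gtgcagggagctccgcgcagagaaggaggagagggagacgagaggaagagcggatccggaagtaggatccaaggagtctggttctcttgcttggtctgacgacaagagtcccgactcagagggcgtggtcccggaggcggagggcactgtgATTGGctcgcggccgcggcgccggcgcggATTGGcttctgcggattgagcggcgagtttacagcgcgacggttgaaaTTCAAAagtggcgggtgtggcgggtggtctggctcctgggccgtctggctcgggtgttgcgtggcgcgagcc
Kif2c (chr5:135899163-135899462, minus strand): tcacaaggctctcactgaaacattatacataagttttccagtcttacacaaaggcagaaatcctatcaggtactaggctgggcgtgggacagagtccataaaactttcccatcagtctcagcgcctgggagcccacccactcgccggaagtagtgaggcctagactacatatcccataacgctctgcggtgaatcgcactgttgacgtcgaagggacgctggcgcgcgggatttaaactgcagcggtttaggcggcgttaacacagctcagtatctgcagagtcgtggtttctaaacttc
Kif5b (chr17:56185136-56185435, plus strand): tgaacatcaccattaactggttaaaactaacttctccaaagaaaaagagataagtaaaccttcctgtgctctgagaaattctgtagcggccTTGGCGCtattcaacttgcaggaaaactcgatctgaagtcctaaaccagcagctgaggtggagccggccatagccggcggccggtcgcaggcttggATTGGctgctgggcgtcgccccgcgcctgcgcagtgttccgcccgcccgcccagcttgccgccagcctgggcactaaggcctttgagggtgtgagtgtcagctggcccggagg

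Counted in bases from the annotated start at 0, Kif23 held a CCAAT match at -88, a CHR match at -79 and an E2F match at 24. Kifc1 held CCAAT matches at -99 and -70 and a CHR match at -22. Kif5b held an E2F match at -159 and a CCAAT match at -63. The Kif2c window held none of these letters. Across the class, 5 of 10 mitotic promoters held a CHR match (50%), against 0 of 9 transport promoters with an entry, 16.9% of the 12918 promoters of genes on the array and 19.7% of all 33469 promoters of this length. The mitotic ones were Kif15, Kif20b, Kif22, Kif23 and Kifc1. Of the 4 other-class promoters with an entry 1 held a CHR match, that of Kif26b at -9, with a CCAAT match at -73. The CCAAT box was found in 6 mitotic and 3 transport promoters, and in 37.5% of all promoters, or 38.0% of those of genes on the array. E2F letters stood in 4 mitotic and 2 transport promoters and in 6.26% of all, or 9.42% of those of genes on the array. These are letter matches in a window; no binding was measured.

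**Figure D1:**
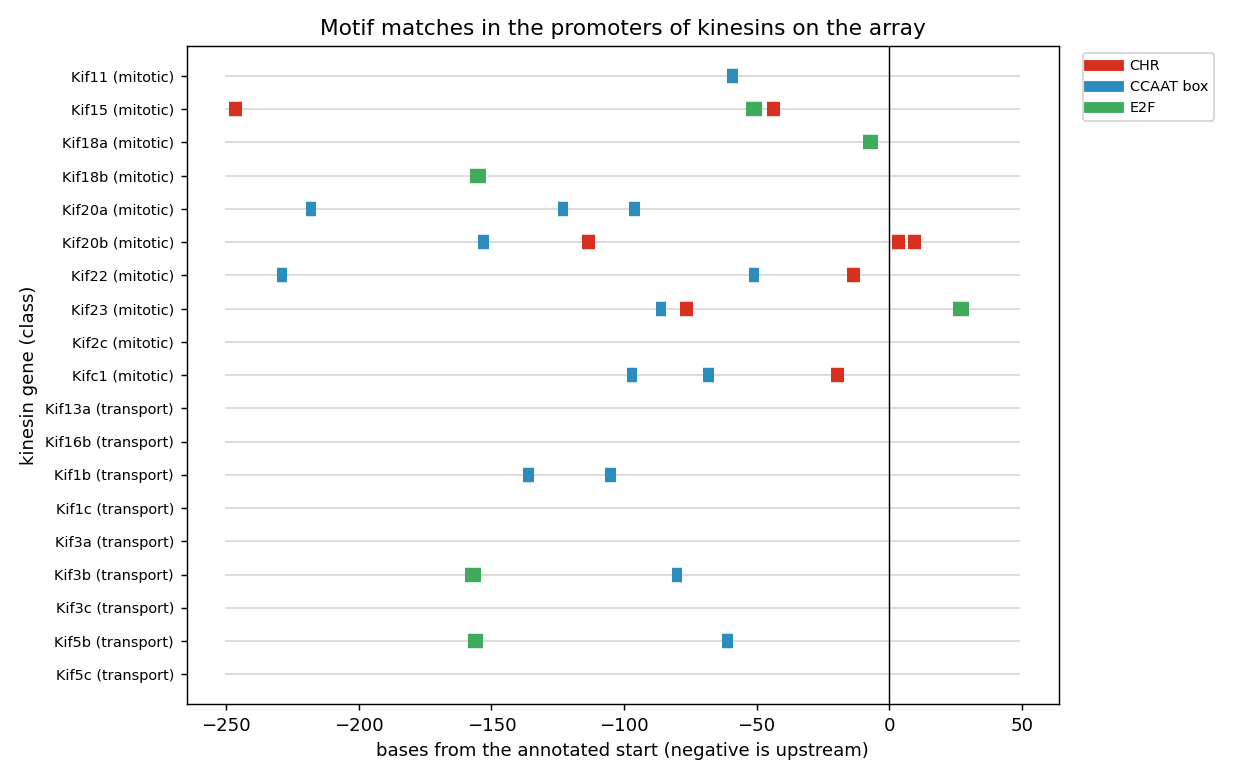
Matches to the CHR (red), CCAAT box (blue) and E2F letters (green) on either strand, by distance in bases from the annotated start, for the 10 mitotic and 9 transport kinesins with a promoter entry. Red blocks appear in 5 mitotic rows and in no transport row, and the Kif2c row is empty.

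After Tmub1 knockdown the mitotic kinesins lay above the knockdown negative control in 10 of 10 cases, with a median log2 difference of 1.17, and 4 of the 10 were at least 2.5-fold higher: Kif23, Kifc1, Kif2c and Kif18a. Over all 12656 genes tested the median was -0.17 and 43.4% lay above 0. Among all those tested, 8.53% were at least 2.5-fold higher and 10.1% that much lower. The transport kinesins had a median of -0.70, with Kif5b higher and Kifc2 lower, and no other kinesin passed the threshold. The gap between the mitotic and transport medians was 1.86. Levels of mitotic mRNAs follow how many cells are dividing, and on bulk RNA more dividing cells and more RNA per cell cannot be told apart.

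Kif23, which with Racgap1 forms the centralspindlin complex of the dividing cell's midzone, had a level of 2.15 with knockdown, against -0.22 in its negative control; the array labelled overexpression had 0.11, against 0.72 in its negative control, and normal cells 1.20. It was 5.19-fold higher with knockdown (log2 difference 2.37, 95% interval from the scanner software's spot error 1.97 to 2.77), and the knockdown array was the highest of the 5. Kifc1, a minus-end motor that gathers microtubules at the spindle poles, stood at 0.03 with knockdown, against -2.05 in its negative control, at -2.39 on the array labelled overexpression, against -2.67 in that negative control, and at -1.09 in normal cells. Its difference after knockdown was 4.23-fold (2.08, 1.68 to 2.48), again with the knockdown array above every other.

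Kif2c takes apart microtubule ends and corrects faulty chromosome attachments. Its level was 0.41 with knockdown, against -1.21 in its negative control, -1.39 on the array labelled overexpression, against -1.01 in that negative control, and 0.58 in normal cells. The difference was 3.08-fold (1.62, 1.22 to 2.02), and its second probe gave 1.53. Here the knockdown array was close to normal cells and the other 3 transduced arrays were low. The knockdown and normal arrays also had the highest median raw signals (356.2 and 329.4), and the part of signal strength was not tested. Kif18a, which steadies chromosomes at the spindle's middle, had 0.38 with knockdown, against -1.02 in its negative control, -1.62 on the array labelled overexpression, against -0.44 in that negative control, and 0.08 in normal cells. It was 2.64-fold higher (1.40, 1.00 to 1.80), near the threshold of 1.32, and 1.30 with normexp, which ended the call; the array labelled overexpression was the lowest of the 5.

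The remaining 6 mitotic kinesins did not reach the threshold with this scaling. Kif18b, Kif20a and Kif20b passed it with quantile normalization and in the authors' table, and Kif15 too with the percentile taken over probes above background. Kif20a, which brings the Aurkb complex to the midzone, had 2.42 with knockdown, against 1.21 in its negative control, 2.04 on the array labelled overexpression, against 2.57 in that negative control, and 2.68 in normal cells. Its log2 difference of 1.21 after knockdown was the closest below the threshold. Kif18b, a regulator of astral microtubule length, had 1.45 with knockdown, against 0.32 in its negative control, a difference of 1.13. Kif15, a second motor for keeping the spindle bipolar, had -0.43 with knockdown, against -1.55 in its negative control (1.11). Kif20b, which acts in the last step of cell division, had 1.43 with knockdown, against 0.36 in its negative control (1.07). The knockdown array was above its negative control in each of these, by a little over 2-fold. Kif11, the motor that pushes the spindle poles apart, differed by 0.50, with 3.09 in knockdown and 2.59 in its negative control, and Kif22, which moves chromosome arms away from the poles, by 0.45, with 3.50 in knockdown and 3.05 in its negative control. The 10 replicate spots of the Kif11 probe had an SD of 0.11 and 0.20 log2 on these 2 arrays, which covers spot error alone.

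**Figure D2:**
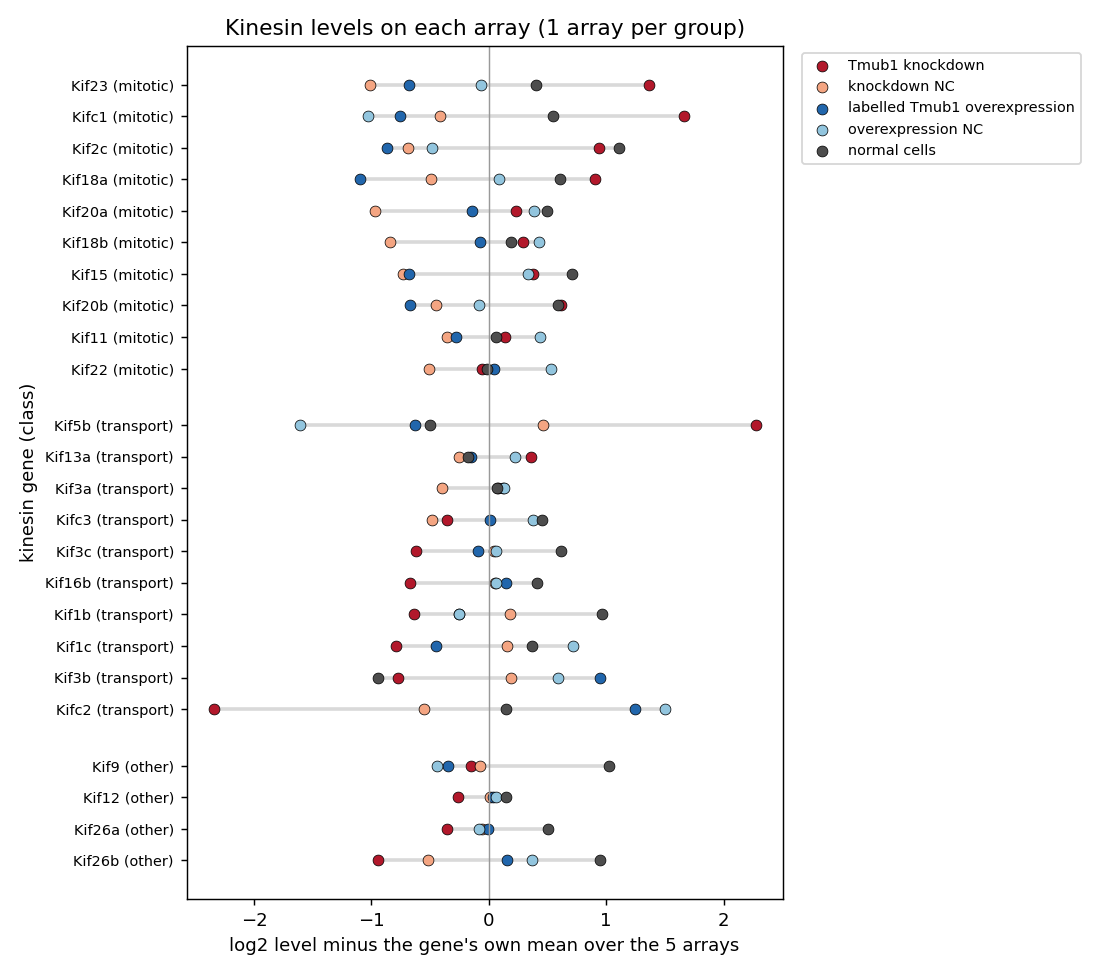
Log2 level of each kinesin above background on all 5 arrays, minus that gene's own mean over the arrays, 1 point per array and 1 array per group. The knockdown points lie right of the knockdown negative control in all 10 mitotic rows, while Kif5b and Kifc2 span the widest ranges, 3.88 and 3.85.

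The result depended on which control array was used. For 6 of the 10 mitotic kinesins the knockdown negative control was the lowest array, against 11.3% of the 10681 genes above background everywhere. Set against the overexpression negative control, 6 of 10 were above 0 with knockdown, the median was 0.37, and Kif23 (1.43), Kif2c (1.42) and Kifc1 (2.70) stayed at least 2.5-fold higher, with 13.6% of all genes that much higher and 16.1% lower. Set against normal cells the median was 0.05 and none of the 10 passed, with Kif23 at 0.96, Kifc1 at 1.11 and Kif2c at -0.17; 11.2% of all genes were higher and 19.3% lower there. The 4 mitotic kinesins above all 3 control arrays with knockdown were Kif23, Kifc1, Kif18a (by 0.30) and Kif20b (by 0.03), against 26.3% of all genes. None was below all 3 controls, against 43.2% of all genes. For Kif23 and Kifc1 the margin over the highest control was 0.96 and 1.11.

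**Figure D3:**
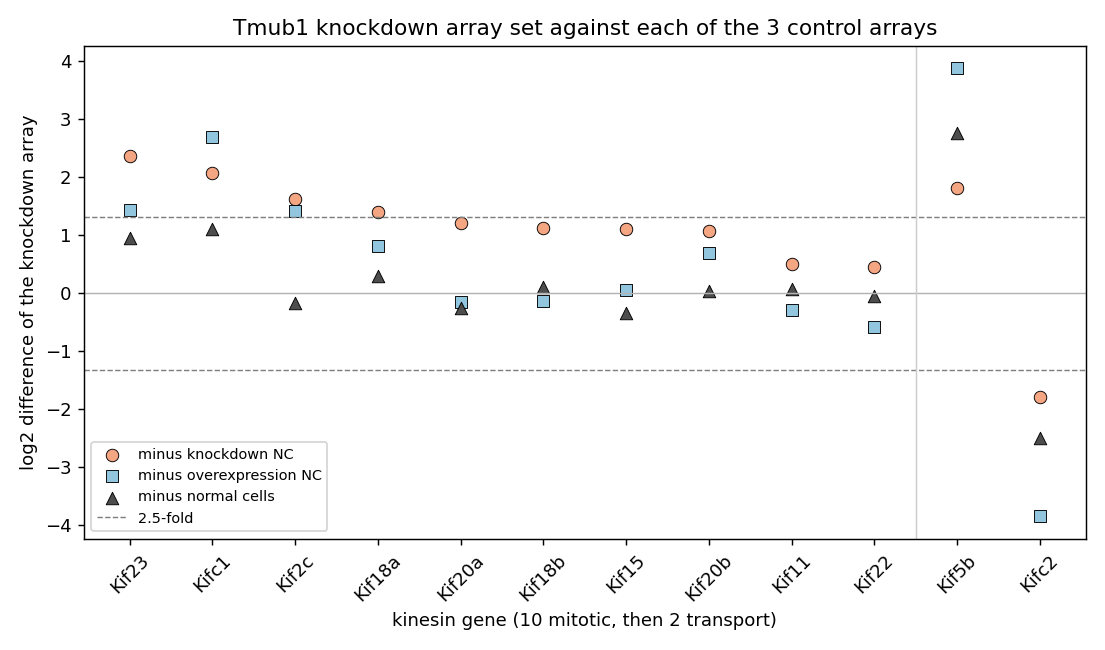
Log2 difference of the Tmub1 knockdown array from the knockdown negative control (circles), the overexpression negative control (squares) and normal cells (triangles) for the 10 mitotic kinesins, Kif5b and Kifc2; dashed lines mark 2.5-fold. Kif23, Kifc1, Kif18a and Kif20b lie above 0 with all 3 symbols, the other 6 mitotic kinesins lie on either side of 0, and Kif5b and Kifc2 keep their direction past the dashed lines throughout.

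Among transport motors, Kif5b, a heavy chain of conventional kinesin that carries mitochondria and lysosomes, had 0.14 with knockdown, against -1.67 in its negative control, -2.77 on the array labelled overexpression, against -3.74 in that negative control, and -2.63 in normal cells. It was 3.50-fold higher with knockdown (1.81, 1.41 to 2.21), and 14.7-fold and 6.83-fold higher when set against the overexpression negative control and normal cells. The negative controls differed from each other in this gene by -2.07 (overexpression negative control minus knockdown negative control), and by -1.07 with normexp background correction, below the threshold. Kifc2, a minus-end motor known from neurons, had -2.63 with knockdown, against -0.83 in its negative control, 0.96 on the array labelled overexpression, against 1.22 in that negative control, and -0.13 in normal cells. It was 3.47-fold lower (-1.80, -2.20 to -1.39), and 14.4-fold and 5.63-fold lower set against the other 2 control arrays, while the negative controls differed by 2.05. Each of these genes has 1 probe.

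The other 8 transport kinesins above background ran from -0.96 to 0.61 with knockdown, below the threshold. Kif3b, a subunit of the motor that builds cilia, had 1.08 with knockdown, against 2.04 in its negative control, 2.80 on the array labelled overexpression, against 2.44 in that negative control, and 0.91 in normal cells. Its second, dimmer probe had 0.60 where the main one had -0.96, and the probes of Kif1b (-0.82 and 0.67) and Kif16b (-0.73 and 0.66) also pointed in opposite directions; with the mean of all probes the transport median was -0.06 in place of -0.70. Of the 8 kinesins with several probes, 5 had the same direction on each of them in this comparison. Kif27 is among the 5, though its brightest probe was below background on the knockdown array and its negative control, so its direction is not readable. The reference table lists pseudogenes of Kif11, Kif18b, Kif1c and Kif13a as well, and signal from them on these probes was not tested. Against the overexpression negative control Kif1c, a vesicle motor, was lower as well (-1.51), and so was Kif3b (-1.36). The 5 other-class kinesins tested ran from -0.43 to 0.93, the highest being Kif7, whose negative control value was below background.

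On the array labelled overexpression, where no rise of Tmub1 was seen (log2 difference 0.07), no kinesin of 25 tested passed the threshold, where 1.71% of all genes were higher and 1.01% lower than in the overexpression negative control. The mitotic median was -0.56, with 9 of 10 below 0, against a median of 0.01 and 49.1% below 0 over all genes. The mitotic values ran from -1.18 for Kif18a and -1.01 for Kif15 to 0.27 for Kifc1, and the transport median was -0.08. Set against the knockdown negative control, the mitotic median was 0.07 with 6 of 10 above 0, where 49.7% of all genes were. Kifc2 was the kinesin past the threshold there (1.79), with 1.92% of all genes higher and 2.16% lower.

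**Figure D4:**
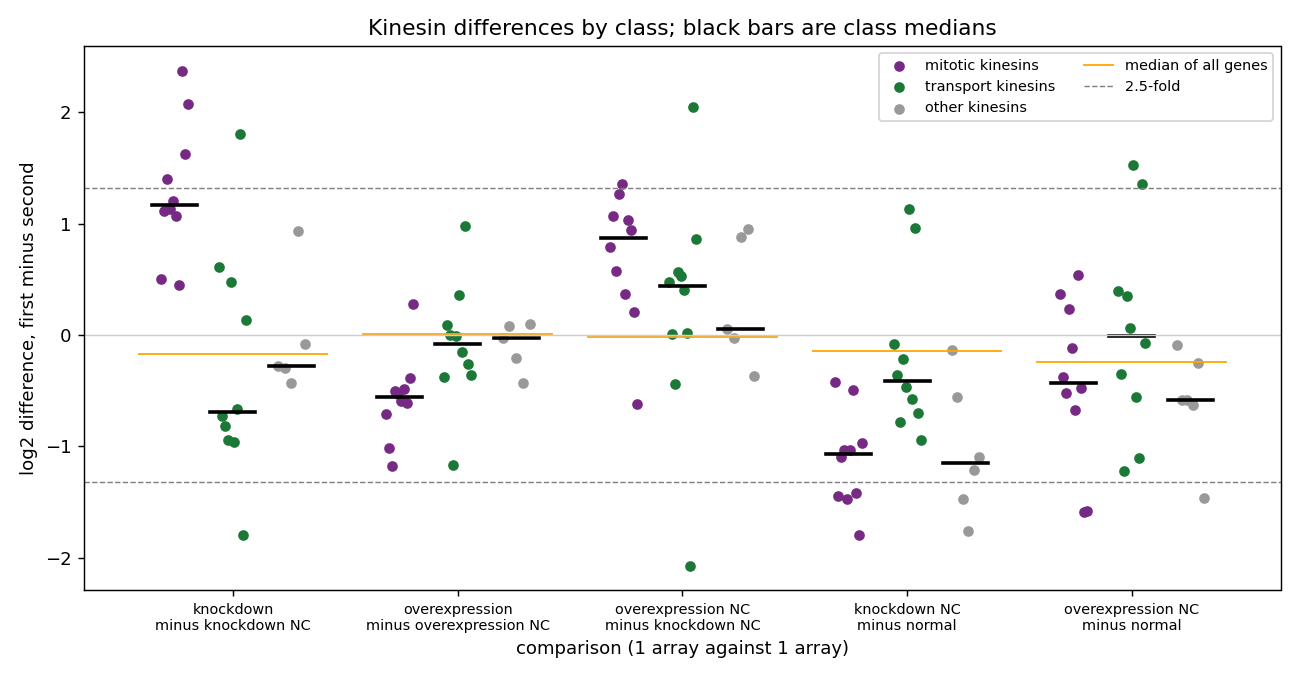
Log2 differences of the kinesins in each comparison, first array minus second, by class; black bars are class medians, orange bars the median of all genes and dashed lines 2.5-fold. The mitotic points lie above 0 in the first comparison, with a median of 1.17, and below 0 in the fourth, with a median of -1.07; these comparisons share the knockdown negative control array.

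The negative control arrays were set against each other as a measure of how far arrays without a change in Tmub1 differ. The overexpression negative control lay above the knockdown negative control in 9 of 10 mitotic kinesins, with a median of 0.87 against -0.01 over all genes. Of all genes, 49.1% lay above 0 in this comparison. Kif20a (1.36) and Kifc2 were at least 2.5-fold higher and Kif5b lower, where 3.38% of genes were higher and 5.22% lower. Kif20a did not pass with quantile normalization (1.21), the percentile over probes above background (1.29) or in the authors' table (1.22). Kifc1 was the mitotic kinesin with the opposite sign, at -0.62.

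Each negative control was also set against normal cells, where the control virus and the separate scan of the normal array cannot be told apart. With the knockdown negative control all 10 mitotic kinesins lay below normal cells, with a median of -1.07, and 4 were at least 2.5-fold lower: Kif2c (-1.79), Kif20a (-1.47), Kif15 (-1.45) and Kif23 (-1.42). Kif26b, an atypical kinesin of tissue development, was the fifth kinesin to pass, at -1.47; its second probe had -0.91, and it did not pass with quantile normalization (-1.26), with normexp (-1.15), in the authors' table (-1.26) or with the mean of its probes (-1.19). Kif15 did not pass with normexp (-1.25). In this comparison 55.7% of all genes lay below 0, 9.52% were at least 2.5-fold lower and 7.06% higher. With the overexpression negative control 7 of 10 mitotic kinesins lay below normal cells, where 57.7% of all genes did. The mitotic median was -0.43, against -0.24 over all genes. Kif2c (-1.59) and Kifc1 (-1.58) were lower there, as was Kif9, a kinesin of motile cilia (-1.46), while Kif3b (1.53) and Kifc2 (1.35) were higher; 9.94% of all genes were lower and 7.60% higher. The second Kif3b probe had -0.67, and with the mean of its probes Kif3b had 0.43. Kif3b and Kifc2 did not pass with quantile normalization (1.23 and 1.22), with the percentile over probes above background (1.28 and 1.1004) or in the authors' table (1.26 and 1.23). Kifc1 and Kif9 did not pass with quantile normalization (-1.24 and -0.65), with normexp (-1.21 and -0.33) or in the authors' table (-1.23 and -0.66), and Kif2c passed under each scaling run. Kif2c was at least 2.5-fold below normal cells on the array labelled overexpression too (-1.98), as were Kif18a (-1.70), Kif15 (-1.39) and Kif9 (-1.36), while Kif3b was higher (1.89); 9.38% of all genes were that much lower and 7.26% higher. Kif2c lay within 0.17 of normal cells on the knockdown array.

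Proteins that work with the mitotic kinesins were read from a list of spindle and midzone partners. Of 18 partners on the array, 9 were at least 2.5-fold higher with knockdown than in its negative control and 0 lower, with a median of 1.49, where 8.53% of all genes were higher and 10.1% lower. The largest differences were those of Aurkb, a mitotic kinase (4.04), Tpx2, which seeds spindle microtubules (3.60), the kinetochore protein Cenpf (2.55) and Cdca8, a partner of Aurkb (2.21). Racgap1, named here for its complex with Kif23 after its values were seen, had 1.95 with knockdown, against -0.12 in its negative control, a difference of 2.08. With knockdown Aurkb and Tpx2 were also higher than in normal cells, by 1.54 and 1.91. Against normal cells the partner median was 0.12, with 4 higher and 1 lower, where 11.2% of all genes were higher and 19.3% lower. Against the overexpression negative control it was 0.43, with 5 higher and 1 lower, where 13.6% of all genes were higher and 16.1% lower. The lower partner in both was Plk1, a mitotic kinase, at -1.87 and -1.94. On the array labelled overexpression 0 of 17 passed in either direction against its own negative control, where 1.71% of all genes were higher and 1.01% lower. The partner median was -0.68 there. Against normal cells the knockdown negative control had 9 of 18 partners lower, with 9.52% of all genes, and the overexpression negative control 4, with 9.94%.

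Kinesin light chains and cargo adaptors did not share one direction. Of 17 measured, 1 was higher with knockdown than in its negative control and 1 lower, with a median of -0.71, where 8.53% of all genes were higher and 10.1% lower. The light chain Klc1, which joins Kif5b to cargo, was higher, at 1.41. The dynein adaptor Hook1 was at least 7.93-fold lower, a bound since it was below background on the knockdown array. Hook1 had -9.02 with knockdown, against -3.73 in its negative control, and -8.91 in normal cells. It had -8.08 on the array labelled overexpression, against -4.98 in that negative control. The knockdown negative control was at least 7.75-fold above normal cells in this gene. Against the overexpression negative control 5 were higher and 5 lower, with a median of 0.18, where 13.6% of all genes were higher and 16.1% lower. Klc1 had -0.25 with knockdown, against -1.66 in its negative control, -1.76 on the array labelled overexpression, against -2.48 in that negative control, and -1.06 in normal cells, so the knockdown array was the highest and the overexpression negative control the lowest, as for Kif5b. The other light chains did not have knockdown as their highest array. Klc4 had -1.81 with knockdown, against -0.53 in the knockdown negative control, its highest array, a difference short of 2.5-fold. Klc3 had -4.93 against -5.30, and was highest in normal cells (-4.43).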

How the data were processed

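Per the file headers, the deposited scanner files were made with Agilent Feature Extraction 11.0.1.1 on an array designed on build rn4; the submitters' processing notes name version 9.1. Their processed signal is an intensity, background-subtracted by the authors' scanner software and not scaled between arrays. The deposited table of processed values was taken as log2 from its values; its 5 columns share their quartiles and a median of 6.685, and the software behind it is unstated in the labels and headers.

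Control spots and spots marked as outliers were left out, and spots of a probe were averaged as log2 values. Each array was scaled to its 75th percentile over 30367 probes. Of these, 18005 were named through RefSeq accessions, and a gene was read from its brightest probe. A value below background was raised to the array's lowest value above background, which makes the difference a lower bound. Medians use the measured values. The chosen Kif27 probe was left out on the overexpression array as an outlier spot.

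The members and lists were chosen with earlier results of these data known. Every mitotic kinesin, every other kinesin past 2.5-fold in 1 of the 5 comparisons and up to 4 changed members per partner list and direction were named. Alternatives were other scalings, normexp (limma 3.58.1, offset 50, on median pixel signals, since no mean pixel signal was given), the authors' log2 table, other probe rules, a 2-fold threshold and other control arrays. The call was tested on simulated data that held scanner spot error alone, with every gene set above background. Variation between arrays and the rule for values below background were therefore not tested. The number of arrays limits the precision, and the scanner error covers the spot reading alone. For a probe with several spots the mean error of its spots was used, without narrowing by their number.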

Additional observations from a re-analysis of the deposited data

Results flagged for a closer look

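For 3 kinesins the knockdown and the array labelled overexpression lay on opposite sides of their own negative controls, and the knockdown difference passed 2.5-fold; with 1 array per group the difference between the effects was not tested. No rise of Tmub1 was read on the array labelled overexpression (log2 difference 0.07 from its negative control). The contrast therefore cannot be taken as one of lowered against raised Tmub1. Whether the Tmub1 probe reads the mRNA made from the virus was not tested. Kif23 stood at 2.37 with knockdown and -0.61 on the array labelled overexpression, 2.99 apart on the log2 scale. Kif18a had 1.40 and -1.18, which are 2.58 apart. Kif2c had 1.62 and -0.39, a gap of 2.01. The 95% interval around that -0.39 ran from -0.79 to 0.013. It rests on the scanner software's error per spot and is not narrowed by the number of spots. The replicate spots of this probe had an SD of 0.051 log2 on the array labelled overexpression (10 spots). In its negative control the SD was 0.11 (7 spots). With 1 array per group the side of this value has no replicate check. How many of all genes had such opposite sides was not counted. The 2 effects use different negative control arrays, which differed from each other by 0.94, 0.58 and 0.21 in these genes (overexpression negative control minus knockdown negative control). No group held enough arrays to look for an array that stood apart from its replicates.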

How the results depend on the processing

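No paired analysis was possible because each group holds 1 array. With knockdown against its negative control, 5 kinesins were higher and 1 lower; 8 were higher with quantile normalization and in the authors' table, and 9 with the percentile over probes above background or a 2-fold threshold. With normexp the count stayed at 5, with Kif20a in place of Kif18a. The mitotic minus transport gap of 1.86 was 2.14 with quantile normalization and in the authors' table and 1.23 with the mean of all probes. Against the overexpression negative control the lower count was 3 and the gap 1.08; against normal cells 1 was higher and 3 lower, the gap was 1.00 and Kif2c turned to -0.17. For the array labelled overexpression, where no kinesin passed, 3 were lower at 2-fold; against the knockdown negative control 1 was higher and the gap of -0.48 became -0.031, and against normal cells 1 was higher and 4 lower, with a gap of -0.97. Between the negative controls, 2 kinesins were higher and 1 lower; quantile normalization, the percentile over probes above background and the authors' table left 1 higher, normexp 0 lower, a 2-fold threshold gave 5 higher, and the mean of all probes took the gap of 0.43 to 0.82. For the knockdown negative control against normal cells, 5 were lower, 3 with normexp and 10 at 2-fold, where 1 was higher. For the overexpression negative control against normal cells, 2 were higher and 3 lower. Quantile normalization and the authors' table gave 0 higher and 1 lower, the percentile over probes above background 0 and 5, normexp 1 lower, the mean of all probes 1 higher with a gap of -0.0056 in place of -0.42, and a 2-fold threshold 5 lower. At 2-fold the counts over all genes rose as well. For the array labelled overexpression 260 were lower in place of 119, and between the negative controls 859 were higher in place of 400. Against normal cells 2260 were lower in place of 1285 for the knockdown negative control, and 2401 in place of 1336 for the other. The cause of these changes was not tested. The percentile over probes above background gave a median of all genes in knockdown of 0.14 in place of -0.17, and normexp -0.42; the mitotic medians were 1.48 and 1.25 there, and all 10 mitotic kinesins stayed above the knockdown negative control under each of the other scalings. The share of higher genes among those called in knockdown was 45.7%, and 71.2% with that percentile and 34.0% with normexp. For the array labelled overexpression it was 62.9%, and 51.8% with quantile normalization, 51.4% in the authors' table and 49.4% with normexp; between the negative controls it was 39.3%, and 53.8% with normexp. Against normal cells, in the order quantile normalization, the percentile over probes above background, normexp and the authors' table, it was 67.4%, 29.7%, 71.8% and 67.5% in place of 42.6% for the knockdown negative control, and 71.9%, 24.4%, 81.6% and 70.8% in place of 43.3% for the overexpression negative control. Among the named kinesins, 595 single values kept their side of the threshold, 40 newly passed it, 27 no longer did and 1 reversed. A reversal was counted only for a value past the threshold in the main setting. Smaller values that changed sign are among the 595. One is Kif20a with knockdown, at 1.21 against its own negative control and -0.15 against the overexpression negative control. Settings that could not alter a value are counted there too. Counting Kif2a and Kif24 as mitotic was not run, since neither has a named probe.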

Other observations

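Dynein and dynactin, the motor complex that walks opposite to most kinesins, had 1 of 17 measured genes at least 2.5-fold higher with knockdown than in its negative control and 2 lower, with a median of 0.06, where 8.53% of all genes were higher and 10.1% lower. The dynactin subunit Dctn4 was higher (1.50), and the light chain Dynll2 (-2.10) and the intermediate chain Dync1i2 (-1.35) were lower. Against the overexpression negative control 3 were higher and 7 lower, where 13.6% of all genes were higher and 16.1% lower. None of 17 passed on the array labelled overexpression against its own negative control, where 1.71% of all genes were higher and 1.01% lower. Tubulins, the microtubule subunits, had 0 of 11 past the threshold in either virus comparison, with medians of -0.15 with knockdown and -0.16 on the array labelled overexpression. Of all genes, 8.53% were higher and 10.1% lower with knockdown, and 1.71% and 1.01% on the array labelled overexpression. Tubb2a was higher than in normal cells on each of the 4 transduced arrays, by 2.36 with knockdown, 2.65 in its negative control, 2.58 on the array labelled overexpression and 2.74 in that negative control. Virus and the separate scan of the normal array cannot be told apart here.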
